A study of Mus musculus with 16 samples.

Results

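Cytochrome P450 enzymes of families 1 to 3 were followed in liver and in 3 fat depots of mice that had received sunitinib or vehicle. The members were taken by symbol, as Cyp followed by family number 1, 2 or 3, a single letter and a number. In all, 54 such symbols were in at least 1 of the 4 tissue tables, and 48 of them reached a mean of at least 3 on the deposited regularized log2 (rlog) scale in at least 1 table. The liver table held 53 of them among 18566 genes, and 45 of these were among the 12394 genes that reached the mean of 3. The same numbers were 42 and 24 in epididymal white fat (22972 genes, 15526 past the level), 40 and 19 in inguinal white fat (22103 genes, 14916 past it) and 35 and 14 in brown fat (19664 genes, 13044 past it). Nearest to the level were Cyp2g1 at 3.23 inside and Cyp2c69 at 2.67 outside in liver, Cyp2b9 at 3.09 and Cyp2a12 at 2.95 in epididymal white fat, Cyp2c37 at 3.04 and Cyp2j5 at 2.94 in inguinal white fat, and Cyp1a2 at 3.15 and Cyp2r1 at 2.87 in brown fat.

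All mice were C57BL/6 and 24 weeks old, and carried no allele that the labels name. They had received sunitinib (Sutent), a drug taken by mouth that blocks receptor tyrosine kinases such as those for vascular growth factors, or vehicle, and each of the 4 tissues had 2 sunitinib and 2 vehicle libraries, 16 in all. The series describes 8 mice with 4 per treatment, and the labels give neither the mouse or pool behind a library nor dose, duration or sex, so each p-value reflects the spread between libraries alone, which may be technical. Replicate numbers are those of the titles, which number the sunitinib livers 3 and 4.

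P450 enzymes are heme proteins of the endoplasmic reticulum that take electrons from P450 reductase and add an oxygen atom to their substrate. Families 1 to 3 hold the enzymes that oxidise most drugs and other foreign compounds, and several also act on steroids, bile acids and fatty acids. They are made mostly by hepatocytes, where the aryl hydrocarbon receptor (Ahr) drives Cyp1a genes and the nuclear receptors CAR (Nr1i3) and PXR (Nr1i2) drive Cyp2b, Cyp2c and Cyp3a genes, while HNF4A and C/EBP proteins set basal expression. In humans, sunitinib is itself cleared mainly by an enzyme of the CYP3A subfamily.

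Of the 48 members past the level in some table, 24 passed in liver alone and 10 passed in all 4 tables. These 10 were Cyp1a1, Cyp2b10, Cyp2c29, Cyp2d9, Cyp2d22, Cyp2d26, Cyp2e1, Cyp2j6, Cyp2j9 and Cyp2u1. Another 3 passed in fat and not in liver, namely Cyp1b1, which oxidises oestrogens and polycyclic hydrocarbons, Cyp2s1, an enzyme of epithelia, and Cyp2j13. The remaining 6 symbols passed nowhere. The 15 hepatocyte markers were all measured in liver, with list means of 16.3 and 16.2 rlog in the sunitinib livers and 16.2 in both vehicle livers. The adipocyte list was measured whole in each fat table, with means of 14.96 to 15.47 in the white depots and 12.8 to 12.9 in brown fat, where Ucp1, the uncoupling protein, had 16.93 and 16.80 in the sunitinib depots and 16.68 and 16.46 in the vehicle depots.

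The 4 members that passed the test in a tissue all lie on chromosome 7. Their sequences are shown as a description, and no call was computed from them. Cyp2a4, a testosterone hydroxylase, and Cyp2a5, the coumarin hydroxylase that corresponds to human CYP2A6, differed at 23 of 1482 aligned coding bases (98.4% identical). The stretch below covers coding bases 596 to 655 of both genes (GENCODE M21 transcripts, GRCm38), with the 4 differing bases in capitals.
Cyp2a4: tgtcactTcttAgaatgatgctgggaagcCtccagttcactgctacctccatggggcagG
Cyp2a5: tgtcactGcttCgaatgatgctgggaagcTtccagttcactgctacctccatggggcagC
The longest run without a difference was 216 bases. Of the 50-base words of the transcripts, 38.0% for Cyp2a4 and 40.8% for Cyp2a5 also occurred in another gene, mainly in each other, and with 100-base words 11.2% and 14.4% did. Neither the read length nor the treatment of reads that match several genes is given in the sources used here. The values of Cyp2a4 and Cyp2a5 thus cannot be taken as independent of each other and are uncertain as single genes.

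The 250 bases before the start of each of these genes are given from RefSeq (GRCm38.p6, plus strand). Capitals mark CAAAGTCC, a core of the HNF4 site, TTGCNNAA, a site of C/EBP and PAR bZIP proteins, and TATAAA, the TATA box, each searched on both strands. None of these motifs overlapped another in these windows, and they were chosen with the sequences in view.
Cyp2a4, chr7:26306942-26307191: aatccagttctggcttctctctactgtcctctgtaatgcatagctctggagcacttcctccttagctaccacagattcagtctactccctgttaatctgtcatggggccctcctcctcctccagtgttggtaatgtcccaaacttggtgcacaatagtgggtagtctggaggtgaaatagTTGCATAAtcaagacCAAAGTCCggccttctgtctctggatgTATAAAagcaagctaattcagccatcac
Cyp2a5, chr7:26835089-26835338: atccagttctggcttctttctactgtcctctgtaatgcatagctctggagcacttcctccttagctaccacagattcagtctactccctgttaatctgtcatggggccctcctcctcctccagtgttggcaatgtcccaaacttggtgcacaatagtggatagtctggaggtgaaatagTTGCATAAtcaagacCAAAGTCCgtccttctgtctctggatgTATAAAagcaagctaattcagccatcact
Cyp2e1, chr7:140763569-140763818: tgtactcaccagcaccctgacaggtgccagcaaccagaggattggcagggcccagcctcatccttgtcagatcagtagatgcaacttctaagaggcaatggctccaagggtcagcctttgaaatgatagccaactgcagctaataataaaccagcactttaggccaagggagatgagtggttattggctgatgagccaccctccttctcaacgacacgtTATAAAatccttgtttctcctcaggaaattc
Cyp2f2, chr7:27119705-27119954: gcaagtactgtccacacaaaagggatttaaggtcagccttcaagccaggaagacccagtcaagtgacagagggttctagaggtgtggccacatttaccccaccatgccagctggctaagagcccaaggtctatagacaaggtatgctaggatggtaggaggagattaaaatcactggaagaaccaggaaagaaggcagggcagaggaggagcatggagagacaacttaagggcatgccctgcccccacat
The Cyp2a4 and Cyp2a5 windows were 98.4% identical over 249 aligned bases, with 4 differing. Both held all 3 motifs, whereas the Cyp2e1 window held TATAAA alone and the Cyp2f2 window none. Among 32851 RefSeq promoter windows CAAAGTCC was in 1.2%, TTGCNNAA in 9.6% and TATAAA in 12.4%, and among the 46 members with a window they were in 10, 12 and 22. GCGTG, the core of the Ahr response element, was in 28.2% of all windows and in 6 of the 46. A match of letters is a description and shows no binding.

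In liver, Cyp2a4 and Cyp2a5 fell and no member rose. The test was limma over all 12394 genes with Benjamini-Hochberg (BH) adjustment, and an adjusted p below 0.05 counted as passing. The 2 members were among the 9 genes of the whole liver table that passed as lower (0.0726% of genes tested), while 15 genes passed as higher (0.121%), none of them a member.

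Cyp2a4 had 12.46 and 12.68 rlog in the sunitinib livers, against 13.30 and 13.23 in the vehicle livers. Cyp2a5 had 11.81 and 12.05 rlog in the sunitinib livers, against 12.65 and 12.62 in the vehicle livers. For both genes each sunitinib liver lay below each vehicle liver, by more than the spread within either group. The log2 differences, sunitinib minus vehicle, were −0.70 ± 0.09 for Cyp2a4 and −0.71 ± 0.09 for Cyp2a5 (SE, n = 2 libraries per group), each with an adjusted p of 0.0178 from limma. With their values summed on the linear scale as 1 gene, an alternative chosen after seeing the data, the difference was −0.70 ± 0.09 (limma, adjusted p = 0.0189). The call was lost without the intensity trend of the variance (limma, adjusted p = 0.0916 and 0.0931). Over the 4 livers left out in turn, the difference lay between −0.81 and −0.59 for Cyp2a4 and between −0.83 and −0.59 for Cyp2a5. In whole tissue, fewer cells of a type and less RNA per cell cannot be told apart, here and in the fat depots.

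**Figure D1:**
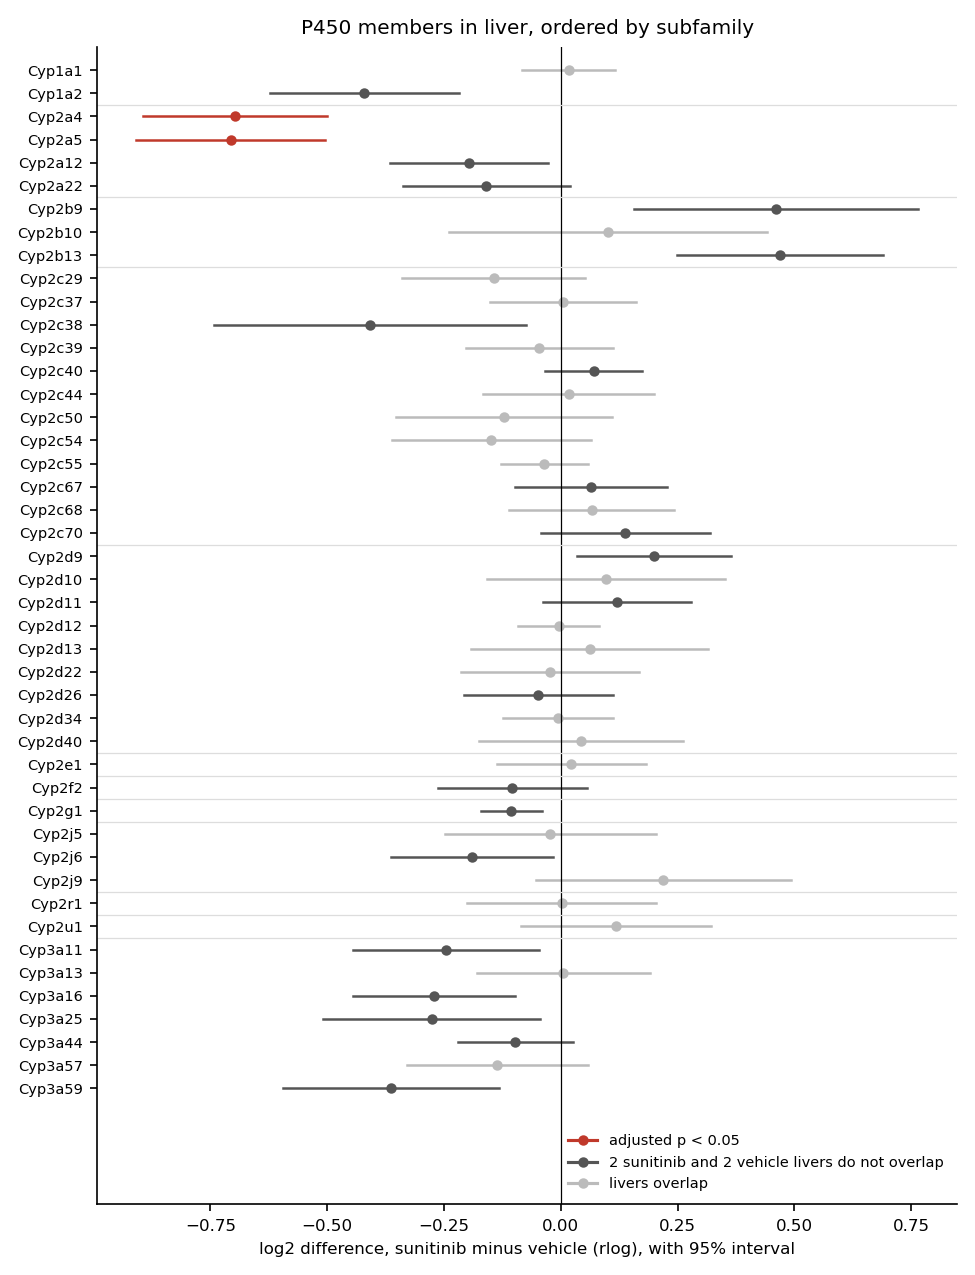
Log2 difference in liver (x axis, sunitinib minus vehicle, rlog) of the 45 members past a mean of 3, with 95% intervals from limma, ordered by subfamily (rows). Cyp2a4 and Cyp2a5, in red, are at −0.70 and −0.71, all 4 Cyp2a members lie left of 0 and all 3 Cyp2b members lie right of it.

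The median difference of the 45 liver members was −0.022, against 0.0027 over all genes tested, and 20 of 45 were positive, against 51.4% of all genes. Sunitinib and vehicle livers did not overlap for 15 members that were lower and 7 that were higher, against 19.2% and 18.3% of all genes. These shares of the members were 33.3% and 15.6%. At an unadjusted p below 0.05 there were 11 lower and 3 higher members, against 5.17% and 3.47% of all genes. The lower members in both counts include near-identical pairs, namely Cyp2a4 with Cyp2a5 and Cyp3a25 with Cyp3a59. Members counted apart may therefore be a single signal.

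In the Cyp1a subfamily, whose genes are the classical Ahr targets, neither of the 2 members passed in liver. Cyp1a2, which oxidises caffeine and arylamines, had 12.79 and 12.76 rlog in the sunitinib livers, against 13.07 and 13.32 in the vehicle livers. The groups did not overlap, and the difference of −0.42 ± 0.09 did not pass (limma, adjusted p = 0.145). Without sunitinib liver 3, sunitinib liver 4, vehicle liver 1 or vehicle liver 2 it was at −0.44, −0.41, −0.54 and −0.30. In such fits a lone library is assumed to vary like the rest. Cyp1a1 had 3.91 and 3.98 in the sunitinib livers and 3.89 and 3.97 in the vehicle livers, so its groups overlapped at a level near the cut. Of the Ahr targets outside the P450s, 3 of 5 were in the liver table and 2 were tested, and neither passed. Nqo1, a quinone reductase, differed by −0.16 ± 0.07 and Tiparp, an ADP-ribosyltransferase, by −0.06 ± 0.09.

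All 4 Cyp2a members had a negative difference in liver without overlap of the groups, against 19.2% of all genes, with a subfamily median of −0.45. Besides Cyp2a4 and Cyp2a5 these were Cyp2a12, a bile acid hydroxylase, and Cyp2a22, whose coding sequences are 97.0% identical. Cyp2a12 and Cyp2a22 are thus also uncertain as single genes, and each near-identical pair may be a single signal. Cyp2a12 had 12.60 and 12.72 rlog in the sunitinib livers, against 12.86 and 12.85 in the vehicle livers. Its difference of −0.20 ± 0.07 did not pass (limma, adjusted p = 0.494), nor did that of Cyp2a22, at −0.16 ± 0.08 (limma, adjusted p = 0.642).

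The 3 Cyp2b members were all positive, with a median of 0.46, and none passed. Cyp2b13 had 6.35 and 6.33 rlog in the sunitinib livers, against 5.71 and 6.03 in the vehicle livers, a difference of 0.47 ± 0.10 (limma, adjusted p = 0.142). Cyp2b9 had 10.18 and 10.47 in the sunitinib livers, against 9.66 and 10.06 in the vehicle livers, a difference of 0.46 ± 0.13 (limma, adjusted p = 0.309). Both genes, which are known as female-high in mouse liver, lay higher in each sunitinib liver, and they are 92.7% identical in coding sequence. Of their 50-base words, 27.3% for Cyp2b13, mainly in Gm45225, and 11.2% for Cyp2b9, mainly in Cyp2b13, also occurred in another gene. Over the 4 livers left out in turn, the difference lay between 0.31 and 0.63 for Cyp2b13 and between 0.26 and 0.66 for Cyp2b9. Both were smallest without vehicle liver 1. Cyp2b10, the standard CAR target, had 7.94 and 8.41 in the sunitinib livers and 7.91 and 8.24 in the vehicle livers. Its groups overlapped, and its difference of 0.10 ± 0.15 had a 95% interval of −0.24 to 0.44.

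**Figure D2:**
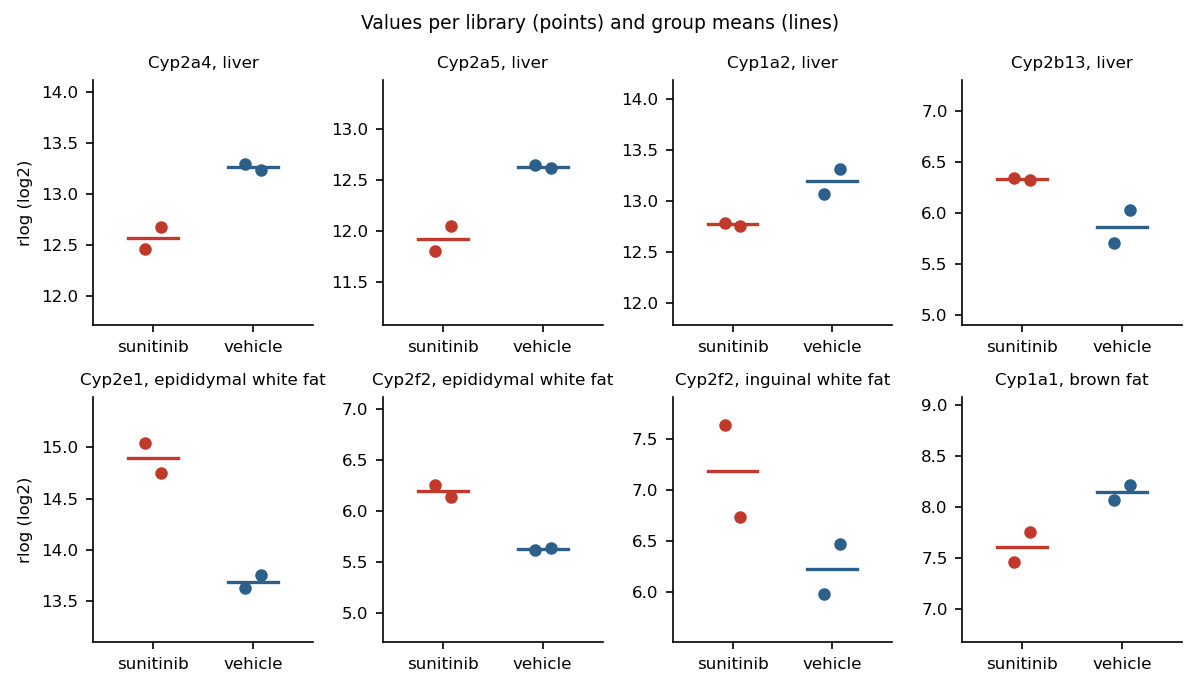
Rlog value (y axis, log2, with a range of the same width in every panel) of each library, with sunitinib in red on the left, vehicle in blue on the right and lines at the group means (n = 2 each). Groups do not overlap in any of the 8 panels, and the 2 sunitinib libraries are furthest apart for Cyp2f2 in inguinal white fat, at 7.64 and 6.74.

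The Cyp2a, Cyp2b, Cyp2f and Cyp2g genes lie near one another on chromosome 7, with genes of other families among them. In gene order the run opened with Cyp2b10, Cyp2b13 and Cyp2b9, which were all positive in liver. It went on, past Vmn1r184, with Cyp2a4. Next came Nlrp9c, Nlrp4a, Nlrp9a, Vmn1r185, Cyp2b23 and Cyp2b19, so 2 Cyp2b genes without a liver test lie among the Cyp2a genes. The run ended with Cyp2g1, Cyp2a5, Cyp2a22, Cyp2a12 and Cyp2f2, which were all negative, as was Cyp2a4. Cyp2g1, an enzyme known from olfactory epithelium, was near the cut, at 3.17 and 3.18 in the sunitinib livers and 3.28 in both vehicle livers. Cyp2f2, which activates naphthalene and is known as periportal, had 12.80 and 12.76 in the sunitinib livers, against 12.90 and 12.87 in the vehicle livers, a difference of −0.10 ± 0.07 (limma, adjusted p = 0.769).

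**Figure D3:**
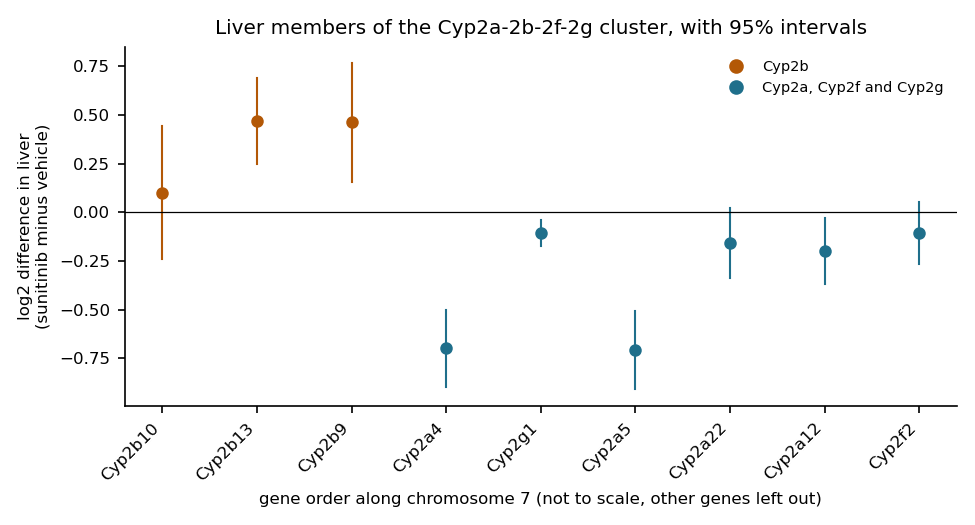
Log2 difference in liver (y axis, sunitinib minus vehicle, with 95% intervals) of the 9 members of the chromosome 7 cluster that were tested, in gene order (x axis, not to scale, other genes left out). Cyp2b10, Cyp2b13 and Cyp2b9 are at 0.10, 0.47 and 0.46, and the 6 that follow are between −0.71 and −0.10.

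The 12 Cyp2c members, many of which make epoxides of arachidonic acid, were divided into 6 positive and 6 negative, with a median of −0.015. Cyp2c38 had the largest difference, with 8.89 and 9.44 rlog in the sunitinib livers, against 9.53 and 9.62 in the vehicle livers. The groups did not overlap, though the sunitinib livers were far apart, and the difference of −0.41 ± 0.15 did not pass (limma, adjusted p = 0.461). Cyp2c29, a CAR target, had 13.68 and 13.78 in the sunitinib livers and 13.77 and 13.98 in the vehicle livers. Its groups overlapped, as did those of Cyp2c55, an enzyme that CAR and PXR ligands induce, at 4.12 and 4.10 in the sunitinib livers and 4.12 and 4.17 in the vehicle livers. Cyp2c70, which makes muricholic acids in mice, had 12.53 and 12.38 in the sunitinib livers, against 12.36 and 12.28 in the vehicle livers (difference 0.14 ± 0.08, limma, adjusted p = 0.714). Near-identical coding sequences, at 95% or more, join Cyp2c37, Cyp2c50 and Cyp2c54 and also Cyp2c67, Cyp2c68 and Cyp2c69, so these values are uncertain as single genes. Cyp2c40 was below 95%, but 72.1% of its 50-base words and 44.1% of its 100-base words occurred in another gene, mainly Cyp2c69. Its value is uncertain too.

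The 9 Cyp2d members had a median of 0.044. Cyp2d10 and Cyp2d11 shared 40.5% and 37.2% of their 50-base words with another gene, mainly each other, and are uncertain as single genes. Cyp2d9, a testosterone hydroxylase known as male-high in mouse liver, had 14.58 and 14.48 rlog in the sunitinib livers, against 14.35 and 14.30 in the vehicle livers. Both sunitinib livers were higher, by 0.20 ± 0.07 on average, which did not pass (limma, adjusted p = 0.466). Of the 50-base words of Cyp2d9, 29.0% also occurred in another gene, mainly Cyp2d12. Cyp2d22, often set beside human CYP2D6, had 12.30 and 12.18 in the sunitinib livers and 12.35 and 12.18 in the vehicle livers, with overlap.

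Cyp2e1, which oxidises ethanol, acetone and paracetamol, had 17.22 and 17.30 rlog in the sunitinib livers and 17.26 and 17.22 in the vehicle livers. The livers overlapped, and the difference was 0.02 ± 0.07 with a 95% interval of −0.14 to 0.18. Cyp2j9, the third largest positive difference, had 7.28 and 6.94 in the sunitinib livers and 7.02 and 6.76 in the vehicle livers (0.22 ± 0.12, limma, adjusted p = 0.691), with overlap. It was at 0.39 without sunitinib liver 4, but at 0.049 without sunitinib liver 3 and at 0.091 without vehicle liver 2. Cyp2j5, an arachidonic acid epoxygenase, had 13.06 and 13.30 in the sunitinib livers and 13.10 and 13.30 in the vehicle livers. Cyp2r1, a vitamin D hydroxylase, had 6.80 and 6.99 in the sunitinib livers and 6.82 and 6.98 in the vehicle livers. Cyp2u1, which hydroxylates long-chain fatty acids, had 7.48 and 7.27 in the sunitinib livers and 7.32 and 7.19 in the vehicle livers. In each of these 3 genes the groups overlapped.

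Of the 7 Cyp3a members, 6 were negative, with a median of −0.25, and none passed. Cyp3a11, the main drug-oxidising Cyp3a enzyme of mouse liver and a PXR target, had 12.54 and 12.71 rlog in the sunitinib livers, against 12.95 and 12.79 in the vehicle livers (difference −0.25 ± 0.09, limma, adjusted p = 0.457). Cyp3a25 had 12.34 and 12.63 in the sunitinib livers, against 12.83 and 12.69 in the vehicle livers (difference −0.28 ± 0.10, limma, adjusted p = 0.474). For both, each sunitinib liver was lower than each vehicle liver. Cyp3a25 was at −0.42 without sunitinib liver 4 and at −0.13 without sunitinib liver 3. Cyp3a25 is near-identical to Cyp3a59, which differed by −0.36 ± 0.10. Cyp3a13 had 11.36 and 11.29 in the sunitinib livers and 11.23 and 11.40 in the vehicle livers, with overlap and a difference of 0.01 ± 0.08.

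Members known to be female-high, male-high or zoned along the liver lobule were counted as lists. Of 7 female-high members 6 were tested, with 3 higher and 3 lower without overlap, against 18.3% and 19.2% of all genes, and a median of −0.013. The higher ones were Cyp2b9, Cyp2b13 and Cyp2c40 and the lower ones Cyp2a4, Cyp3a16 and Cyp3a44. Cyp2c40 differed by only 0.07 ± 0.05, and its value is uncertain as a single gene. The 7 members known as pericentral, the zone near the central vein, had a median of −0.14, and 3 of them, Cyp2a5, Cyp1a2 and Cyp3a11, were lower without overlap, against the same 19.2%.

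Receptors and transcription factors that drive these genes gave no call in liver, with 30 of 31 tested and a median of 0.0060. CAR (Nr1i3) had 10.83 and 10.96 rlog in the sunitinib livers, against 11.51 and 11.24 in the vehicle livers, so each sunitinib liver was lower. Its difference was −0.49 ± 0.10 (limma, adjusted p = 0.132). Onecut1, a hepatocyte factor, had 6.62 and 6.48 in the sunitinib livers, against 6.11 and 6.12 in the vehicle livers (0.44 ± 0.07, limma, adjusted p = 0.0689). Hnf4a differed by 0.31 ± 0.09 and Ahr by −0.39 ± 0.12, neither past the test and neither with overlap, and PXR (Nr1i2) by −0.01 ± 0.07.

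CAR and PXR targets outside the P450s had a median of −0.22. Of 20 tested, 13 were lower and 1 higher without overlap, against 19.2% and 18.3% of all genes. None passed after adjustment, and 12 had an unadjusted p below 0.05 as lower, against 5.17% of all genes. The smallest p-values were those of Gsta2 at −0.39 ± 0.07, Gstt3 at −0.35 ± 0.08 and Gstm2 at −0.39 ± 0.09, all glutathione transferases, and of Slco1a4, an organic anion transporter, at −0.49 ± 0.14. Conjugation and other drug-metabolising enzymes, a list that shares genes with this one, had a median of −0.10 and no call. Without overlap, 22 of 48 were lower and 5 higher, against the same shares of all genes. Examples are the sulfotransferase Sult1a1, at 12.54 and 12.61 in the sunitinib livers against 12.94 and 12.92 in the vehicle livers, and the carboxylesterase Ces1d, at 12.72 and 12.99 in the sunitinib livers, against 13.29 and 13.59 in the vehicle livers. Electron supply and heme genes had a median of −0.057 and no call, with 6 of 17 lower and 2 higher without overlap, against the same shares. Por, the P450 reductase, differed by −0.17 ± 0.07, Cyb5r3, a cytochrome b5 reductase, by −0.29 ± 0.07 and Alas1, which starts heme synthesis, by −0.03 ± 0.09.

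Among 24 tested genes of other P450 families in liver, 1 fell and 1 rose, against 0.0726% and 0.121% of all genes. Cyp7a1, which catalyses the first and limiting step of the classical route to bile acids, fell to 7.81 and 7.90 rlog in the sunitinib livers, against 9.34 and 9.71 in the vehicle livers (−1.67 ± 0.11, limma, adjusted p = 0.000797). Cyp7b1, an oxysterol hydroxylase, rose to 11.74 and 11.64 in the sunitinib livers, against 11.12 and 10.95 in the vehicle livers (0.65 ± 0.08, limma, adjusted p = 0.0178).

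Markers of other cells were read beside these results. Over all liver genes tested, 18.3% were higher and 19.2% lower without overlap. The hepatocyte list had a median of −0.0028, with 4 of 15 higher and 1 lower without overlap. The higher ones were Fga, Fgb, Fgg and Serpina3k, which are acute-phase or fibrinogen genes, at 0.27 to 0.36, and the lower one was Alb at −0.19. Macrophage markers had list means of 7.69 and 7.48 in the sunitinib livers and 7.54 and 7.82 in the vehicle livers, and endothelial markers 6.35 and 6.35 in the sunitinib livers and 6.37 and 6.52 in the vehicle livers. Adipocyte markers had list means of 6.90 and 6.61 in the sunitinib livers and 6.66 and 6.61 in the vehicle livers, with a median of 0.11 and 4 of 10 higher and 1 lower without overlap, so sunitinib liver 3 was the highest. The part of cell makeup in the liver results was not tested.

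**Figure D4:**
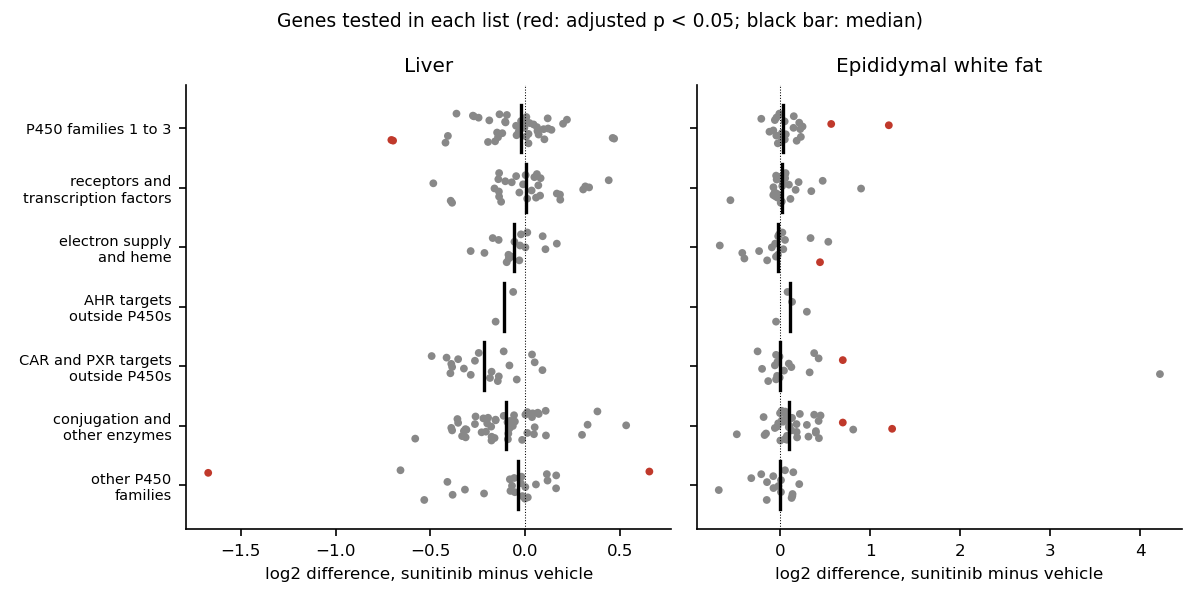
Log2 difference (x axis, sunitinib minus vehicle) of every tested gene in the P450 members and 6 related lists (rows), in liver on the left and epididymal white fat on the right, with red for adjusted p below 0.05 and black bars at the medians. The liver medians are −0.022 for the members and −0.22 for CAR and PXR targets, and the red points of the members are lower in liver and higher in epididymal white fat.

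In epididymal white fat, Cyp2e1 and Cyp2f2 rose and no member fell. Of 15526 genes tested 0.277% passed as higher and 2.06% as lower. Cyp2e1 rose to 15.04 and 14.75 rlog in the sunitinib depots, against 13.63 and 13.75 in the vehicle depots. Cyp2f2 rose to 6.26 and 6.14 in the sunitinib depots, against 5.62 and 5.64 in the vehicle depots. In both genes the lowest sunitinib library lay above the highest vehicle library by more than the gap within either group. The differences were 1.21 ± 0.13 for Cyp2e1 (limma, adjusted p = 0.0287) and 0.57 ± 0.07 for Cyp2f2 (limma, adjusted p = 0.0342; SE, n = 2 per group). Without vehicle library 1 neither passed (limma, adjusted p = 0.235 and 0.266), nor without vehicle library 2 (0.273 and 0.297), while the differences stayed between 1.06 and 1.35 for Cyp2e1 and between 0.51 and 0.63 for Cyp2f2 over the 4 libraries left out. In 1 fit over the 4 tissues, which leaves out Cyp2f2 because it was below the level in brown fat, the Cyp2e1 call was also lost (limma, adjusted p = 0.103).

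Markers of other cells moved in the same depots. Over all genes tested there, 27.0% were higher and 26.8% lower without overlap, and 0.277% passed as higher and 2.06% as lower. Epithelial and epididymal duct markers had list means of 8.45 and 7.73 rlog in the sunitinib depots, against 6.38 and 6.93 in the vehicle depots, with 9 of 10 higher without overlap and a median of 1.5. Cldn7 passed, and Crisp1, an epididymal secretory gene, had 12.66 and 5.98 in the sunitinib depots and 6.21 and 6.05 in the vehicle depots, so sunitinib library 1 stood far above the rest. Without that library Cyp2e1 and Cyp2f2 were at 1.06 and 0.51 (limma, adjusted p = 0.0287 and 0.0306), but the duct list mean of the remaining sunitinib library, 7.73, was also above both vehicle depots. Cholangiocyte markers, which are largely epithelial genes, had list means of 7.75 and 7.84 in the sunitinib depots, against 6.74 and 7.11 in the vehicle depots, with a median of 0.94 and 4 of 6 higher without overlap. Endothelial markers had means of 8.14 and 8.19 in the sunitinib depots, against 8.36 and 8.69 in the vehicle depots, with a median of −0.36, 5 of 7 lower without overlap and 1 past the test as lower. Lymphocyte markers had means of 4.59 and 4.61 in the sunitinib depots, against 4.51 and 4.53 in the vehicle depots, with 6 of 7 higher without overlap. Macrophage markers had list means of 8.38 and 8.41 in the sunitinib depots, against 9.11 and 9.10 in the vehicle depots, and Mpeg1, Cd68, Lyz2 and Csf1r fell, 4 of the 6 tested. Hepatocyte markers had means of 6.11 and 6.62 in the sunitinib depots and 6.10 and 6.35 in the vehicle depots, all 15 with overlap, none at 0, and Alb at 10.14 and 10.81 in the sunitinib depots, against 9.93 and 10.50 in the vehicle depots. Adipocyte markers had means of 15.4 and 15.2 in the sunitinib depots and 15.5 and 15.3 in the vehicle depots, with a median of −0.037, and Lep, the leptin gene, fell by 1.01. The part of these cells in the rise of Cyp2e1 and Cyp2f2 was not tested.

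The other members of epididymal white fat gave no call. The median of the 24 was 0.038, against 0.0089 over all genes, and 5 were higher and 5 lower without overlap, against 27.0% and 26.8% of all genes. At an unadjusted p below 0.05 there were 2 higher and 1 lower, against 8.14% and 11.9% of all genes. The largest negative differences were those of Cyp2j9, with 7.87 and 7.76 rlog in the sunitinib depots against 8.05 and 7.99 in the vehicle depots (−0.21 ± 0.07, limma, adjusted p = 0.223), and Cyp2c44, with 5.0 and 5.02 in the sunitinib depots, against 5.11 and 5.14 in the vehicle depots (−0.12 ± 0.05, limma, adjusted p = 0.269). Both did not overlap. Cyp2b10 had 5.54 and 5.29 in the sunitinib depots, against 5.22 and 5.15 in the vehicle depots, and Cyp2s1 had 6.52 and 6.60 in the sunitinib depots, against 6.44 and 6.36 in the vehicle depots, without overlap and without a call. Cyp2b10 was at 0.35 without sunitinib library 2 and at 0.11 without sunitinib library 1. Cyp2d22 had 8.83 and 8.93 in the sunitinib depots, against 8.54 and 8.77 in the vehicle depots (0.23 ± 0.10, limma, adjusted p = 0.291). Cyp1b1 had 9.38 and 9.19 in the sunitinib depots and 8.97 and 9.23 in the vehicle depots, with overlap. Cyp2d9 had 5.58 and 6.33 in the sunitinib depots and 5.50 and 5.91 in the vehicle depots, Cyp2r1 had 5.74 and 5.75 in the sunitinib depots, against 5.76 and 5.81 in the vehicle depots, and Cyp2u1 had 5.78 and 5.75 in the sunitinib depots, against 5.78 and 5.75 in the vehicle depots, all with differences within 1 SE of 0.

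Members typical of liver were near the cut in epididymal white fat. Cyp2a4 had 3.4 and 3.52 in the sunitinib depots and 3.38 and 3.43 in the vehicle depots, and Cyp2a5 had 3.38 and 3.48 in the sunitinib depots, against 3.37 and 3.44 in the vehicle depots. Cyp1a1 had 3.92 in both sunitinib depots and 3.86 and 4.03 in the vehicle depots, and Cyp1a2 had 3.31 and 3.35 in the sunitinib depots, against 3.30 and 3.34 in the vehicle depots. Their groups overlapped, as did those of Cyp2b9, Cyp2c29, Cyp2j5 and Cyp3a11, whose values lay between 3.06 and 4.07 in the sunitinib depots and between 3.09 and 3.92 in the vehicle depots. Cyp2c70 was lower in both, at 3.97 and 4.02 in the sunitinib depots against 4.09 and 4.05 in the vehicle depots, and did not pass.

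Among the related lists of epididymal white fat, Gsta4 (1.24 ± 0.14, limma, adjusted p = 0.0315) and Gstt1 (0.70 ± 0.10, limma, adjusted p = 0.0438), both glutathione transferases, and Alad, a heme synthesis enzyme (0.44 ± 0.06, limma, adjusted p = 0.0380), rose. Gstt1 is also in the CAR and PXR list, where it was 1 of 18 tested. Of 39 conjugation and other enzymes tested 2 passed, with a median of 0.099, and of 17 electron supply and heme genes 1 passed, with a median of −0.022. Over all genes tested in this depot, 0.277% passed as higher. No receptor or transcription factor among 24 tested passed.

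In inguinal white fat no member passed, nor did any gene of the table (0% of 14916 genes as higher and 0% as lower, limma, BH). At an unadjusted p below 0.05 there was 1 higher member, Cyp1b1, and no lower one, against 3.88% and 8.80% of all genes. Cyp1b1 had 8.79 and 9.23 rlog in the sunitinib depots, against 8.41 and 8.39 in the vehicle depots (0.61 ± 0.18, limma, adjusted p = 0.361), and each sunitinib depot was higher. Cyp2f2 had 7.64 and 6.74 in the sunitinib depots, against 5.99 and 6.47 in the vehicle depots, so both sunitinib depots were higher though far apart (0.96 ± 0.38, limma, adjusted p = 0.403). Cyp2e1 had 14.58 and 13.46 in the sunitinib depots and 13.30 and 13.59 in the vehicle depots, with overlap (0.58 ± 0.42). Without sunitinib library 2, Cyp2f2 was at 1.41 and Cyp2e1 at 1.1. Without sunitinib library 1, Cyp2f2 was at 0.51 and Cyp2e1 at 0.021, so both differences rest largely on sunitinib library 1. Cyp1b1 was at 0.84 without sunitinib library 1 and at 0.39 without sunitinib library 2. The largest negative differences were those of Cyp2u1, at 6.08 and 5.86 in the sunitinib depots against 6.19 and 6.28 in the vehicle depots (−0.27 ± 0.16), and of Cyp2r1, at 4.61 and 4.55 in the sunitinib depots, against 4.84 and 4.80 in the vehicle depots (−0.24 ± 0.12). Both were lower in each sunitinib depot, and neither passed.

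The textbook members that remain in inguinal white fat were mostly near the cut. Cyp1a1 had 3.42 and 3.49 rlog in the sunitinib depots, against 3.18 and 3.33 in the vehicle depots, and Cyp2b9 had 3.08 and 3.06 in the sunitinib depots, against 3.24 and 3.30 in the vehicle depots. Cyp2d22 had 9.58 and 8.86 in the sunitinib depots and 8.86 and 8.92 in the vehicle depots. It was at 0.69 without sunitinib library 2 and at −0.034 without sunitinib library 1. Cyp2s1 had 3.64 and 4.45 in the sunitinib depots and 3.88 and 3.72 in the vehicle depots. It was at 0.65 without sunitinib library 1 and at −0.16 without sunitinib library 2. The sign of both genes thus turned with the library left out. Cyp1a1 was higher and Cyp2b9 lower in each sunitinib depot, while Cyp2d22, Cyp2s1, Cyp2a4, Cyp2b10, Cyp2c29, Cyp2c70 and Cyp2d9 overlapped, the last 5 between 2.99 and 4.16 in the sunitinib depots and between 2.88 and 4.22 in the vehicle depots.

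The 2 inguinal sunitinib libraries stood apart. Lymphocyte markers had list means of 6.28 and 9.68 in the sunitinib depots, against 5.0 and 5.52 in the vehicle depots, and skeletal muscle markers 11.96 and 8.56 in the sunitinib depots, against 13.86 and 12.59 in the vehicle depots. Without overlap there were 3 higher and 3 lower members of 19, against 24.0% and 26.4% of all genes, and their median was 0.0055. Their part in the results was not tested.

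In brown fat no member and no gene of the table passed (0% of 13044 genes as higher and 0% as lower, limma, BH). At an unadjusted p below 0.05 there were 3 higher and 2 lower members of 14, against 9.13% and 6.98% of all genes. Cyp1a1 had 7.46 and 7.75 rlog in the sunitinib depots, against 8.06 and 8.22 in the vehicle depots, a difference of −0.54 ± 0.12 (limma, adjusted p = 0.228). Each sunitinib depot lay below each vehicle depot. Without vehicle library 1 or 2, Cyp1a1 was at −0.61 and −0.46, and without sunitinib library 1 or 2 it was at −0.39 and −0.68. Cyp1a2, near the cut, had 3.07 and 3.08 in the sunitinib depots, against 3.21 and 3.23 in the vehicle depots, also lower in both (−0.14 ± 0.03, limma, adjusted p = 0.228). Over the 4 libraries left out in turn, Cyp1a2 stayed between −0.15 and −0.13. Tiparp, another Ahr target, had 8.60 and 8.66 in the sunitinib depots, against 8.88 and 8.89 in the vehicle depots (−0.25 ± 0.06, limma, adjusted p = 0.228), while Nqo1 overlapped.

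Cyp2b10 had 10.90 and 10.29 rlog in the brown sunitinib depots, against 10.02 and 10.11 in the vehicle depots, a difference of 0.53 ± 0.20 (limma, adjusted p = 0.289). It was higher in both. Without vehicle library 1 or 2 it was at 0.49 and 0.58, and without sunitinib library 1 or 2 at 0.23 and 0.83. Cyp2d22 had 9.93 in both sunitinib depots, against 9.73 and 9.77 in the vehicle depots (0.18 ± 0.06), and Cyp2j6 had 8.63 and 8.56 in the sunitinib depots, against 8.41 and 8.40 in the vehicle depots (0.19 ± 0.06), neither past the test. Cyp2e1 had 9.72 and 8.65 in the sunitinib depots and 8.62 and 8.87 in the vehicle depots, with overlap. Cyp2u1 had 8.13 and 8.04 in the sunitinib depots and 8.08 and 7.89 in the vehicle depots, and Cyp1b1 had 6.41 and 6.46 in the sunitinib depots, against 6.47 and 6.56 in the vehicle depots. Cyp2u1 overlapped, Cyp1b1 was lower in both without a call, and Cyp2c29, Cyp2d9, Cyp2j5 and Cyp3a11 overlapped, between 3.14 and 3.69 in the sunitinib depots and between 3.13 and 3.72 in the vehicle depots. Cyp3a11 was at −0.22 without vehicle library 1 and at 0.0076 without vehicle library 2. The median was −0.010, against −0.0046 over all genes, and 3 members were higher and 3 lower without overlap, against 26.2% and 24.0%. Endothelial markers had list means of 10.33 and 10.21 in the brown sunitinib depots, against 10.05 and 9.68 in the vehicle depots, with 7 of 7 higher without overlap. Macrophage markers had means of 4.79 and 4.86 in the brown sunitinib depots, against 4.98 and 5.07 in the vehicle depots, with a median of −0.39 and 4 of 5 lower without overlap. Skeletal muscle markers had means of 9.73 and 9.04 in the brown sunitinib depots and 7.85 and 11.60 in the vehicle depots, where vehicle library 2 was the highest. The part of these cells in the brown fat values was not tested.

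**Figure D5:**
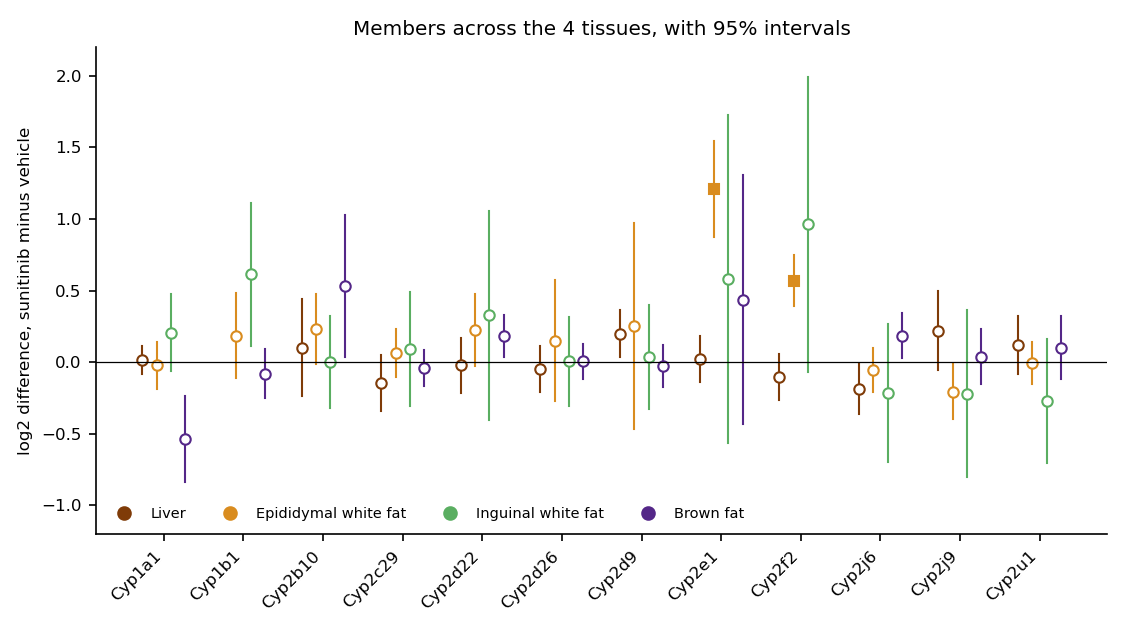
Log2 difference (y axis, sunitinib minus vehicle) of 12 members (x axis) in liver, epididymal white fat, inguinal white fat and brown fat, with 95% intervals from limma and filled squares where the adjusted p was below 0.05. Cyp2e1 is at 1.21 in epididymal white fat and 0.02 in liver, and Cyp1a1 in brown fat is at −0.54.

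The difference of sunitinib effects between tissues was tested for each of the 6 pairs, on genes past the level in both tables. Levels are not compared across tables, which were normalized separately. Epididymal white fat minus liver gave 4 members of 21 with a higher effect and none with a lower one, against 1.13% and 2.81% of 11831 genes. Of these, Cyp2a4 and Cyp2a5 are near-identical and cannot be taken as independent, so they may be a single signal. The difference of effects was 1.19 ± 0.17 for Cyp2e1 (limma, adjusted p = 0.00764), 0.67 ± 0.09 for Cyp2f2 (0.00626), 0.75 ± 0.12 for Cyp2a4 (0.0135) and 0.73 ± 0.12 for Cyp2a5 (0.0149). Cyp2e1 and Cyp2f2 rose in fat and not in liver, while Cyp2a4 and Cyp2a5 fell in liver at levels of 11.8 to 13.3 and were near the cut in fat, where rlog shrinks differences most. Without vehicle liver 1 the count was 1, Cyp2f2, and the smallest limma adjusted p of the other 3 was then 0.0545. Cyp2a5 was also lost without epididymal vehicle library 1, sunitinib liver 3 or vehicle liver 2 (limma, adjusted p = 0.0535, 0.05001 and 0.0560), and Cyp2f2 passed whichever of the 8 libraries was left out.

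No member passed in the other 5 pairs (limma, BH). Of all genes, 0.0430% passed as lower for inguinal white fat minus liver, 0.648% as higher and 2.99% as lower for epididymal minus brown fat, 0.0314% as lower for inguinal minus brown fat, and 0% in each other direction and pair. At an unadjusted p below 0.05 there were 2 higher and 1 lower of 17 members for inguinal white fat minus liver, 2 and 2 of 13 for brown fat minus liver, 2 and 1 of 14 for epididymal minus brown fat, 2 and 0 of 11 for inguinal minus brown fat, and 0 of 19 for epididymal minus inguinal white fat. Cyp2e1 differed by 0.56 ± 0.50 for inguinal white fat minus liver and by 0.77 ± 0.42 for epididymal minus brown fat, and both intervals included 0. The intervals of these differences were wide, at −0.63 to 1.75 and −0.21 to 1.75, so a difference of the size seen between epididymal fat and liver lies inside them.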

How the data were processed

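RNA sequencing of liver, epididymal white fat, inguinal white fat and brown fat from sunitinib and vehicle mice was used as deposited by the authors, who gave a table of regularized log2 expression for each tissue (the unit is named in the table titles). The submitters' processing notes name TopHat2 2.1.1, DESeq2, bedtools and bcl2fastq 2.17.1.14, and the build mm9. Which tool did what, the annotation, the counting settings and strandedness were not given in the sources used here. The regularized scale shrinks low-count genes towards their mean, so differences of such genes are understated, and the depth per library is unknown. Values are not scaled by gene length, so levels are not ranked between genes.

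In every tissue, limma 3.58.1 (R 4.3.3) was run on all genes with a mean of at least 3, with an intensity trend, 2 residual degrees of freedom and Benjamini-Hochberg adjustment over all genes tested. The fits added 7.18, 2.93, 2.19 and 3.28 prior degrees of freedom in liver, epididymal, inguinal and brown fat. Tissue differences were contrasts of group means over the 8 libraries of a pair. Both were run on simulated data with independent normal noise and added effects. That checks the code and does not show how reliable the calls here are. Tests are two-sided, and intervals cover 95%. An exact permutation test of 2 against 2 libraries cannot go below p = 0.333, so none is given. The alternatives were no filter, a mean of at least 5, quantile normalization, median centring, no trend, a robust fit, 1 fit over the 4 tissues, leaving out each library and a replicate block. Leaving out a library leaves a lone library in a group, so calls gained in such fits are not read as results.

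Members and gene lists were chosen with earlier results of these data known. Named with all values are members that passed in any table, the 3 largest liver differences in each direction, the 2 largest in each direction per fat table and textbook members past the level. Lists are given by counts, medians and up to 4 genes by p. Other genes with values, such as Cyp2a22, Cyp2c38, Cyp2g1, Cyp3a59, Cyp2j6 in brown fat, Hnf4a, Ahr, Nr1i2, Alas1 and Tiparp, were chosen after their values were seen. Near-identity, planned on proteins, was computed from coding sequences of GENCODE M21 (GRCm38) with Biopython 1.88, for 52 of 54 members, and promoters came from RefSeq (GRCm38.p6) for 46 of 54. These builds differ from mm9, so sequences were matched by symbol.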

Additional observations from a re-analysis of the deposited data

Results flagged for a closer look

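Members whose sunitinib effect differed between epididymal white fat and liver stand out by the test of that difference itself, an interaction contrast in limma with BH adjustment over 11831 genes. The effect in epididymal white fat minus that in liver was 1.19 for Cyp2e1 (95% interval 0.80 to 1.57), 0.67 for Cyp2f2 (0.46 to 0.88), 0.75 for Cyp2a4 (0.48 to 1.03) and 0.73 for Cyp2a5 (0.45 to 1.01). Cyp2e1 and Cyp2f2 had effects of 1.21 and 0.57 in epididymal white fat and of 0.02 and −0.10 in liver. Cyp2a4 and Cyp2a5, whose values cannot be taken as independent, had effects of 0.05 and 0.02 in epididymal white fat, close to the level cut. In liver they had effects of −0.70 and −0.71. Of the 8 fits that each left out 1 library, the difference of effects did not pass in 4 for Cyp2a5, in 1 each for Cyp2a4 and Cyp2e1 and in none for Cyp2f2 (limma, largest adjusted p = 0.0699, 0.0668, 0.0545 and 0.0379).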

How the results depend on the processing

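Of 809 values of single members under the alternatives, 765 kept their side of the threshold, 30 passed only under the alternative and 14 no longer passed. The sign changed in 50 of the 809, of which 47 belong to members that no setting called and 0 to members called without an alternative. The other 3 are Cyp2s1 and Cyp2d22 in inguinal fat and Cyp3a11 in brown fat, which passed only when a different library was left out. The median difference in liver was −0.0062 without a filter, 0.00016 after quantile normalization and 0.020 in 1 fit over the 4 tissues, and no member was lower without the intensity trend (0) or in 1 fit over the 4 tissues (0). That fit tests only genes past the level in all 4 tables, so Cyp2a4, Cyp2a5 and Cyp2f2 are not in it. In epididymal white fat the median was 0.17 at a mean of at least 5 and 0.11 in 1 fit, and 1 member was higher after quantile normalization and 0 in 1 fit. Cyp2f2 was then at a limma adjusted p of 0.0564. The median was 0.33 (mean of at least 5) and −0.066 (quantile) in inguinal fat, and 0.14 (mean of at least 5) and 0.069 (1 fit) in brown fat. Of the tissue pairs, epididymal fat minus liver had 2 members at a mean of at least 5, where Cyp2a4 and Cyp2a5 were no longer tested, and epididymal minus brown fat had 1 without a filter. The shares of all genes passing under these alternatives are not given here. The cause of the other changes was not tested.

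Leaving out 1 library at a time, liver had 0 to 2 higher and 2 to 6 lower members and a median of −0.072 to −0.023. Epididymal fat had 0 to 3 higher and a median of −0.021 to 0.083, inguinal fat 0 to 3 higher, 0 to 2 lower and a median of −0.039 to 0.070, and brown fat 0 to 1 higher and 0 to 3 lower. Members with differing effects numbered 1 to 4 for epididymal fat minus liver, 0 to 4 for inguinal fat minus liver, 0 to 1 for brown fat minus liver, 0 to 3 for epididymal minus inguinal fat and 0 to 4 for inguinal minus brown fat.

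The labels do not say that replicate numbers pair libraries. The sunitinib livers are 3 and 4 in the titles, which the vehicle livers do not share, but 1 and 2 in the descriptions. A replicate block on the description numbers, added after seeing the data, gave 4 higher and 10 lower members in liver, against 2.32% and 3.79% of all genes, with Cyp2a4 and Cyp2a5 among the lower. It leaves 1 residual degree of freedom, the liver correlation of same-numbered deviations was 0.44, and the conflict of the labels was not resolved. With the number as a replicate block, epididymal fat had 2 higher and 0 lower members and inguinal and brown fat 0 and 0. The share of all genes passing in that epididymal fit is not given here, so its count is not read as a result. Same-numbered libraries deviated with correlations of 0.22, 0.11 and −0.26 in epididymal, inguinal and brown fat, and the crossed block in brown fat, chosen after seeing the data, gave 0 and 0. With 2 libraries per group and no read totals, small differences of low genes are not detectable here.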
